A study of Homo sapiens with 4 samples.

Results

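The genes described here encode the proteins that hold neighbouring endothelial cells together: 38 genes of adherens junctions, tight junctions and endothelial cell-cell adhesion, taken by symbol from a count table of 19912 genes. All 38 were found. RNA was measured in endothelial cells derived from H1, a human embryonic stem cell line, and selected for a GATA2/eGFP reporter. One group was wild type, labelled WT, with 2 libraries, and the other was labelled a GFI1 knockout, GFI1-KO, also with 2. Cells of both were selected for the reporter. GFI1 RNA was still counted in the GFI1-KO libraries (values below), and these RNA counts do not show the protein. The labels used here do not give how GFI1 was disrupted, whether the knockout is 1 clone, or the day of differentiation.

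GFI1 is a DNA-binding repressor that acts while blood cells leave hemogenic endothelium, a step in which cells detach from their neighbours. At adherens junctions, cadherins bind the same cadherin on the next cell and are tied to actin through catenins. At tight junctions, claudins and occludin close the space between cells and are anchored by the zonula occludens scaffold proteins. Nectins, junctional adhesion molecules and PECAM1 are immunoglobulin-family proteins of the same contacts, and the PAR polarity proteins and MAGI scaffolds assemble beside them. VE-cadherin (CDH5) and claudin-5 (CLDN5) are the cadherin and the claudin for which endothelium is best known.

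The library labelled GFI1-KO replicate 1 was shallow, with 146584 counts against 2239214 to 2417410 in the other 3, and 11 of the 31 junction genes tested had 10 or fewer counts in it. GFI1 itself was at 58.5 and 58.3 CPM in the WT pair, against 19.9 and 19.6 CPM in the GFI1-KO pair. These came from 131 and 139 counts in WT, against 3 and 44 in GFI1-KO replicates 1 and 2. The ratio to the pooled WT libraries was 0.34 in GFI1-KO replicate 1 (exact limits for counting error 0.0697 and 1.0). In replicate 2 it was 0.335 (0.238 and 0.462). The shallow library alone therefore hardly set GFI1 apart from its WT level. The edgeR log2 fold change was -1.57 (SE 0.31, adjusted p = 0.0215). CPM here are counts scaled by each library's TMM-adjusted depth. The adjusted p for GFI1 was 0.576 with DESeq2 and 0.139 at a minimum fold of 1.5, and its call was lost in 5 of 14 alternatives. A fit that leaves out 1 library holds only 1 in that group, so it gives no spread there. The log2 fold change of GFI1 in these fits was -1.57 to -1.54. GATA2, whose reporter selected the cells, was also called lower (-1.09, adjusted p = 0.0376). Its call was lost in 8 of 14 alternatives, with adjusted p of 0.115 with DESeq2 and 0.47 at the minimum fold. Of 12 endothelial marker genes, 12 were detected in every library. The 14 blood markers summed to 67 and 121 counts for WT, then 3 and 38 for GFI1-KO, with PTPRC at 0 in all 4 libraries. Of the 4 blood markers tested 0 passed, and at an unadjusted p under 0.05, 3 were lower and 1 higher. The pluripotent list summed to 1081 and 1174 CPM for WT, then 855 and 883 CPM for GFI1-KO, mostly from LIN28A and DNMT3B, with NANOG at 0 in all 4 libraries. Of its 5 tested genes 0 passed, and 4 were lower in both GFI1-KO libraries than in both WT libraries. The mesenchymal list summed to 4428 and 3632 CPM for WT, then 3471 and 3852 CPM for GFI1-KO. Of its 11 tested genes 0 passed, with 3 values above 0 and 8 below.

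Most junction genes did not pass the test of GFI1-KO against WT, and 1 gene passed. PLEKHA7, an adherens junction linker, was lower in GFI1-KO. No junction gene was called higher, although some, among them VE-cadherin, the scaffold gene TJP1 and both protocadherin genes, were higher in both GFI1-KO libraries than in both WT libraries. PECAM1, PARD3 and NECTIN2 were lower in both, also without a call. The low-count filter passed 31 of the 38 genes. Of these 31, 0 were called higher and 1 lower at a Benjamini-Hochberg adjusted p under 0.05, or 0% and 3.23%. Over all 11380 genes tested the shares were 0.773% and 0.185%. At an unadjusted p under 0.05, 7 of the 31 were higher and 1 lower (22.6% and 3.23%), against 5.81% and 3.54% of all genes tested. DESeq2 called 0 junction genes, and limma-voom called 1 higher and 1 lower.

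The median log2 fold change of the 31 genes was 0.25, against -0.02 over all genes tested, and 24 of 31 values were above 0. Both GFI1-KO libraries lay above both WT libraries for 13 of the 31 genes (41.9%; 18.6% of all genes tested) and below for 4 (12.9%; 22.7% of all genes). Against the WT mean, the median was 0.33 in GFI1-KO replicate 1 and 0.22 in replicate 2 (pseudocount 0.5 CPM). The endothelial marker list leaned in the same direction: its 12 genes had a median of 0.52 with 12 of 12 above 0, and 2 were called higher, EMCN and CD34 (16.7%; 0.773% of all genes tested). The EMCN call held in 14 of 14 alternatives and the CD34 call in 8. The adjusted p for CD34 was 0.0673 with the newer edgeR dispersion and 0.515 at a minimum fold of 1.5. The summed level of the 12 genes was 7825 and 8148 CPM for WT, then 10360 and 11612 CPM for GFI1-KO. The part of the endothelial, blood and pluripotent lists in the junction values was not tested. In bulk RNA, fewer cells of a type and less RNA per cell cannot be told apart.

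**Figure D1:**
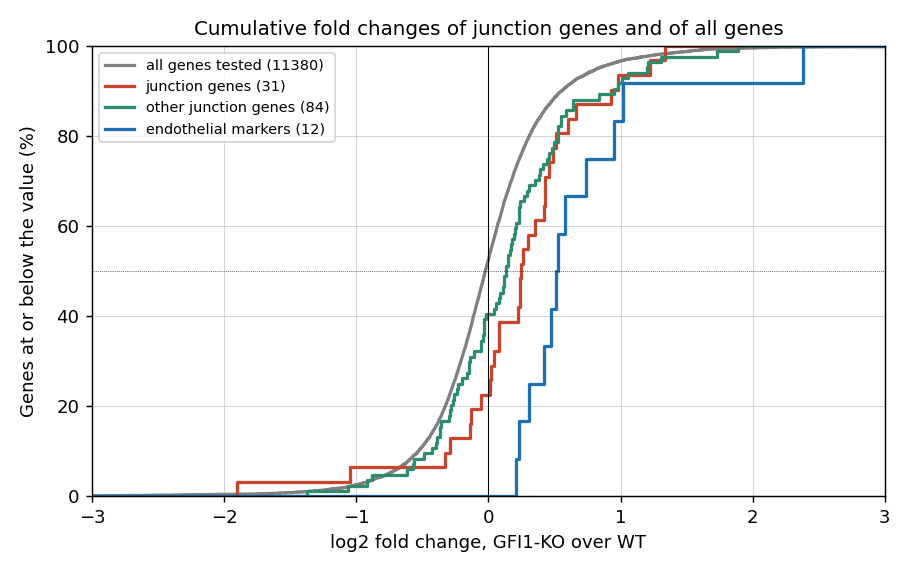
Cumulative share of genes (y, percent) at or below each log2 fold change of GFI1-KO over WT (x) for all 11380 genes tested, the 31 junction genes, 84 other junction genes and 12 endothelial markers. The junction curve crosses 50% at 0.25, right of all genes at -0.02 and left of the endothelial markers at 0.52.

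At adherens junctions, PLEKHA7 encodes a protein that sits at the zonula adherens through p120-catenin and ties junctions to microtubules. The gene lies on chromosome 11, 16777317 to 17014443, minus strand (GRCh38). It held 74 and 79 counts in the WT pair, against 0 and 22 in GFI1-KO replicates 1 and 2. In CPM these were 33.0 and 33.2 in WT against 0 and 9.79 in GFI1-KO, so the groups did not overlap. This gave a log2 fold change of -1.90 with SE 0.44 (edgeR adjusted p = 0.0499), at the edge of the threshold. At the WT level, GFI1-KO replicate 1 would hold about 5.0 counts, and the upper exact 95% limit of its ratio to the pooled WT libraries, for counting error only, was 0.747.

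In GFI1-KO replicate 2 the ratio to the pooled WT libraries was 0.296 (exact 95% limits for counting error 0.180 and 0.464). The call held in 4 of 14 alternatives, 1 of them a fit with 1 GFI1-KO library, and its direction in all 14. The log2 fold change was -1.75 without GFI1-KO replicate 1 and -1.96 without either WT library. It was -8.72 without GFI1-KO replicate 2, which left the library at 0 counts. The adjusted p of PLEKHA7 was 0.0763 with the newer edgeR dispersion and 0.856 with DESeq2. Of its exonic bases, 1.62% are shared with the pseudogene OR7E14P on the opposite strand.

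CDH5, the endothelial cadherin gene (chromosome 16, 66366622 to 66404786, plus strand), was the most abundant junction gene per exon length in 3 of 4 libraries. Its level was 643 and 720 CPM in the WT pair, against 894 and 1008 CPM in the GFI1-KO pair. Both GFI1-KO libraries were above both WT libraries. The change of 0.49 on the log2 scale (SE 0.21, edgeR adjusted p = 0.439) did not pass, and its range over the 14 alternatives was 0.40 to 0.59. The counting interval of the ratio to WT was 1.09 to 1.56 in GFI1-KO replicate 1 and 1.40 to 1.56 in replicate 2.

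CDH5 exceeded CDH1 and CDH2, the other 2 classical cadherins among the 38 genes, in both genotypes. CDH2, which encodes N-cadherin, was at 63.4 and 74.7 CPM in the WT pair, against 72.9 and 99.3 CPM in the GFI1-KO pair, with overlapping groups (log2 fold change 0.43, adjusted p = 0.698). Per exon length (TPM, counts divided by exon length and scaled to the same total), CDH5 stood 8.23 and 7.84 times above CDH2 in WT, and 9.98 and 8.27 times above it in GFI1-KO. CDH1, the epithelial cadherin gene, had 7, 10, 1 and 9 counts in WT replicates 1 and 2 and GFI1-KO replicates 1 and 2, and was under the filter. CDH11, a mesenchymal cadherin gene outside the 38 and named after its values were seen, was at 71.7 and 86.2 TPM in the WT pair, against 50.5 and 65.5 TPM in the GFI1-KO pair (log2 fold change -0.43, adjusted p = 0.636). Of the epithelial markers, KRT7 was at 0 in all 4 libraries, and EPCAM had 16, 9, 0 and 17 counts and GRHL2 0, 2, 0 and 1 in the order used for CDH1. Keratin genes of the same list were detected, with 774, 551, 20 and 683 counts for KRT8, 545, 426, 12 and 456 for KRT18 and 119, 70, 1 and 48 for KRT19.

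The catenins, which couple cadherins to actin, gave small values without a call. CTNNB1, the beta-catenin gene, was at 590 and 620 CPM in the WT pair, against 715 and 725 CPM in the GFI1-KO pair, and the groups did not overlap (log2 fold change 0.25, SE 0.21, adjusted p = 0.837). CTNND1, which encodes p120-catenin, the partner of PLEKHA7, was at 385 and 344 CPM in the WT pair, against 424 and 434 CPM in the GFI1-KO pair (0.24, adjusted p = 0.858). CTNNA1 (alpha-catenin), JUP (plakoglobin) and VCL (vinculin) had values of 0.04, 0.01 and 0.08, with overlapping groups and adjusted p of 0.979 to 0.999. The sign of these 3 genes changed in 2 to 6 of the 14 alternatives. The beta-catenin transcript was less abundant per length than plakoglobin in all 4 libraries, with CTNNB1 to JUP ratios of 0.649 and 0.673 for WT, then 0.897 and 0.730 for GFI1-KO.

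**Figure D2:**
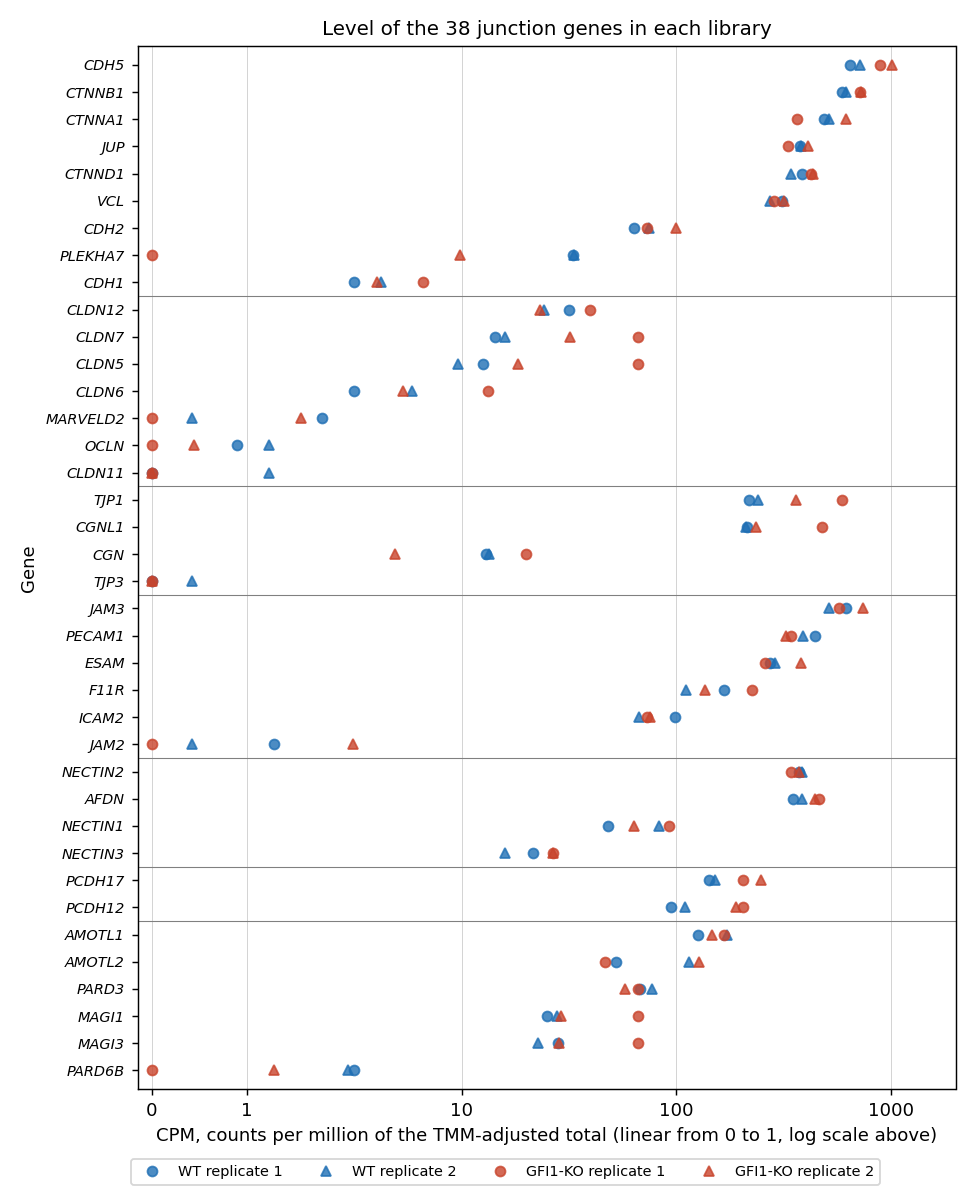
CPM of each of the 38 genes (x, linear from 0 to 1 and log above; y, genes in 7 role groups, divided by lines) in the 2 WT (blue) and 2 GFI1-KO (red) libraries, circles for replicate 1 and triangles for replicate 2. For PLEKHA7 both red points lie below the 2 overlapping blue points near 33 CPM, and for TJP1, CLDN7, CLDN5, PCDH12 and PCDH17 both lie above.

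Among tight junction membrane genes, the 2 claudins with the largest values rested on few counts. CLDN7, a claudin best known from epithelia, held 32 and 38 counts in the WT pair, against 10 and 72 in the GFI1-KO pair, or 14.3 and 15.9 CPM against 66.2 and 32.0 CPM. The groups did not overlap. Its fold change of 1.34 on the log2 scale (SE 0.39, edgeR adjusted p = 0.141) did not pass. CLDN7 passed without the low-count filter (adjusted p = 0.0352) and with the replicate block (0.0268). Its value was 2.13 without GFI1-KO replicate 2 and 1.08 without GFI1-KO replicate 1, each from 1 GFI1-KO library. The epithelial marker list, which leaves out the junction genes, held 0 calls among 6 tested of 14, and 5 of the 6 values were below 0 (median -0.24). It summed to 723 and 493 CPM for WT, then 311 and 583 CPM for GFI1-KO, mostly from KRT8 and KRT18. Of the exonic bases of CLDN7, 10.8% are shared with AC003688.1 on the same strand, so some of its reads may have been assigned elsewhere.

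CLDN5, the claudin that seals endothelial contacts, held 28 and 23 counts in the WT pair, against 10 and 41 in the GFI1-KO pair. Its level was 12.5 and 9.65 CPM in the WT pair, against 66.2 and 18.2 CPM in the GFI1-KO pair, with the shallow library well above the rest. On the log2 scale its value was 1.22 (SE 0.51), which did not pass (adjusted p = 0.416). The counting interval of the ratio to WT was 2.72 to 12.0 in GFI1-KO replicate 1 and 1.07 to 2.54 in replicate 2, so these intervals did not overlap. The log2 fold change of CLDN5 was 2.58 without GFI1-KO replicate 2 and 0.72 without GFI1-KO replicate 1, each from 1 GFI1-KO library.

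Claudin levels were low next to the other junction genes. Per exon length CLDN7 was the highest claudin in every library, at 21.0 and 23.2 TPM in the WT pair, against 108 and 47.3 TPM in the GFI1-KO pair. CLDN5 was at 13.4 and 10.2 TPM in the WT pair, against 78.7 and 19.6 TPM in the GFI1-KO pair, and ranked 19 to 27 of the 38 genes. The counting intervals of CLDN5 and CLDN7 overlapped in replicate 1 of both genotypes (8.90 to 19.4 and 14.4 to 29.6 TPM in WT, 37.7 to 145 and 51.8 to 199 TPM in GFI1-KO). In replicate 2 of both they did not (6.47 to 15.3 and 16.4 to 31.8 TPM in WT, 14.1 to 26.6 and 37.0 to 59.6 TPM in GFI1-KO). CLDN12 was at 31.7 and 24.3 CPM in the WT pair, against 39.7 and 23.1 CPM in the GFI1-KO pair, with overlapping groups (log2 fold change -0.13, adjusted p = 0.979) and a sign that changed in 3 of 14 alternatives (-0.27 to 0.51). CLDN6, a claudin of early embryonic epithelium, had 7, 14, 2 and 12 counts (0.43, adjusted p = 0.943).

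The remaining tight junction membrane genes were close to undetected. OCLN, the occludin gene, held 2 and 3 counts in the WT pair, against 0 and 1 in the GFI1-KO pair, and MARVELD2, which encodes tricellulin, 5 and 1 against 0 and 4. CLDN11 had 0 and 3 counts in WT and 0 in both GFI1-KO libraries. Taken as 3 counts, the limit that a count of 0 allows was 1.34 CPM in the deep GFI1-KO library and 19.9 CPM in the shallow one. None of the 3 passed the filter.

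The scaffold TJP1, or ZO-1, ties claudins and cadherin complexes to actin. The gene lies on chromosome 15, 29699367 to 29968865, minus strand. It was at 218 and 240 CPM in the WT pair, against 590 and 362 CPM in the GFI1-KO pair; the shallow library gave 89 counts. The groups did not overlap. On the log2 scale the change was 0.98 (SE 0.24, edgeR adjusted p = 0.0744), which did not pass. The ratio to pooled WT was 2.57 (2.05 to 3.19) in GFI1-KO replicate 1 and 1.58 (1.44 to 1.73) in replicate 2, so both counting intervals lay above 1 and did not overlap each other. TJP1 passed without the low-count filter (0.95, adjusted p = 0.00889) and with the replicate block (0.97, adjusted p = 0.000581). Its value was 1.37 without GFI1-KO replicate 2 and 0.66 without GFI1-KO replicate 1, each from 1 GFI1-KO library.

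CGNL1, which encodes paracingulin, a binding partner of ZO-1 and PLEKHA7, was at 214 and 212 CPM in the WT pair, against 477 and 235 CPM in the GFI1-KO pair. Only the shallow library stood well apart, at a ratio of 2.24 (1.74 to 2.85) against 1.10 (0.990 to 1.23) in replicate 2. On the log2 scale its value of 0.60 (SE 0.28) did not pass (adjusted p = 0.515). For CGNL1 the value was 1.17 without GFI1-KO replicate 2 and 0.14 without GFI1-KO replicate 1. Its paralog CGN, the cingulin gene, held 29 and 32 counts in the WT pair, against 3 and 11 in the GFI1-KO pair, with overlapping groups (-1.05, SE 0.57, adjusted p = 0.635). The 2 GFI1-KO libraries fell on opposite sides of WT for CGN, at 19.9 and 4.90 CPM. TJP3, or ZO-3, had 1 count in all 4 libraries together.

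**Figure D3:**
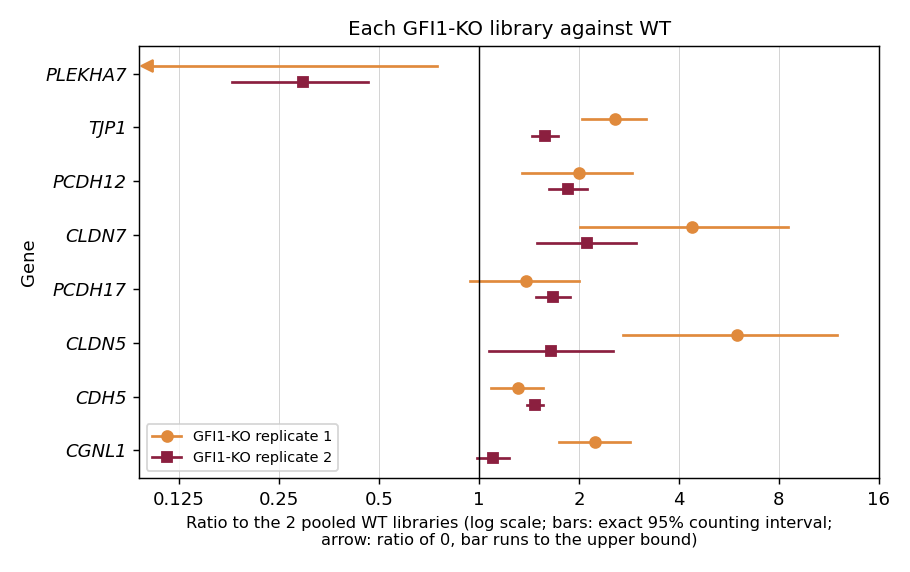
Ratio of each GFI1-KO library to the 2 pooled WT libraries (x, log scale, exact 95% counting intervals) for the 8 junction genes with the smallest p (y). For PCDH12, PCDH17 and CDH5 the intervals of the 2 libraries overlap, while for TJP1, CLDN5 and CGNL1 the shallow replicate 1 lies above replicate 2.

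The immunoglobulin-family genes held no call, and PECAM1 had lower values in both GFI1-KO libraries than in both WT libraries. PECAM1, the CD31 adhesion molecule of endothelial contacts, was at 443 and 388 CPM in the WT pair, against 344 and 324 CPM in the GFI1-KO pair. The groups did not overlap, and the log2 fold change was -0.33 (SE 0.21, edgeR adjusted p = 0.759). Its direction was kept in 14 of 14 alternatives, with values of -0.40 to -0.22. This is opposite in sign to CDH5, at 0.49, and the difference between the 2 genes was not tested.

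The other immunoglobulin-family genes had overlapping groups. JAM3 was the most abundant of them per exon length in 3 of 4 libraries, and stood at 618 and 517 CPM in the WT pair, against 570 and 742 CPM in the GFI1-KO pair (log2 fold change 0.24, adjusted p = 0.861). ESAM, an endothelial-selective adhesion molecule, was at 272 and 289 CPM in the WT pair, against 258 and 381 CPM in the GFI1-KO pair (0.26, adjusted p = 0.856), and its sign changed to -0.11 without GFI1-KO replicate 2. ICAM2, a leukocyte adhesion ligand at endothelial contacts, was at 98.2 and 66.7 CPM in the WT pair, against 72.9 and 75.2 CPM in the GFI1-KO pair (-0.14, adjusted p = 0.96), with a sign change without WT replicate 1; 26.8% of its exonic bases are shared with PRR29 on the opposite strand. F11R, which encodes JAM-A, had a value of 0.22 (adjusted p = 0.921), and shares 36.6% of its exonic bases with AL591806.3. JAM2 had 0 to 7 counts and was under the filter.

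Nectins form contacts beside cadherins and bind afadin (AFDN) inside the cell. NECTIN2 was the most abundant of this group per exon length, and its level was close to equal in the 4 libraries: 374 and 384 CPM for WT, then 344 and 373 CPM for GFI1-KO (log2 fold change -0.06, SE 0.21, adjusted p = 0.981). The interval of its pooled ratio was 0.903 to 1.06, for counting error only. AFDN was at 351 and 385 CPM in the WT pair, against 464 and 443 CPM in the GFI1-KO pair, without overlap (0.30, adjusted p = 0.797). NECTIN3 and NECTIN1 had values of 0.51 and 0.08, with adjusted p of 0.801 and 0.982, and the sign of NECTIN1 changed in 3 of 14 alternatives.

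Both protocadherin genes were higher in both GFI1-KO libraries, and neither passed the test. For each gene the counting intervals of the shallow and the deep library overlapped, and for PCDH17 the shallow one included 1. PCDH12, the VE-cadherin-2 gene of endothelial contacts (chromosome 5, 141943585 to 141969741, minus strand), was at 94.7 and 110 CPM in the WT pair, against 205 and 190 CPM in the GFI1-KO pair. The log2 fold change was 0.93 (SE 0.23, edgeR adjusted p = 0.0757). PCDH12 passed in 4 of 14 alternatives: limma-voom (adjusted p = 0.0463), no low-count filter (0.0328), the replicate block (0.00983) and without GFI1-KO replicate 1. PCDH12 had a log2 fold change of 0.89 in that last fit, which held 1 GFI1-KO library. The counting interval of its ratio to WT was 1.35 to 2.88 in GFI1-KO replicate 1 and 1.62 to 2.12 in replicate 2. Of its exonic bases, 1.58% are shared with RNF14 on the opposite strand.

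PCDH17, a protocadherin of the delta group, was at 142 and 152 CPM in the WT pair, against 205 and 247 CPM in the GFI1-KO pair, without overlap. The log2 fold change was 0.66 (SE 0.22, adjusted p = 0.236), and no alternative called it. The ratio to WT was 1.39 (0.940 to 2.0) in GFI1-KO replicate 1 and 1.67 (1.49 to 1.88) in replicate 2. Among 12 other protocadherin genes, 8 were tested, 0 passed, and 7 of 8 values were above 0 with a median of 0.70. PCDH7 was at 36.6 and 50.8 CPM in the WT pair, against 66.2 and 92.1 CPM in the GFI1-KO pair (0.98, adjusted p = 0.116), and PCDH11X had a value of 1.73 (adjusted p = 0.122) with overlapping groups.

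GFI1 is a DNA-binding repressor whose recognition sequence has the core AATC. The bases upstream of junction genes with higher values in both GFI1-KO libraries were read for it, although none of these genes passed the test. RefSeq promoters (GRCh38.p14) were matched for 24 of the 38 genes, and the 250 bases before the annotated start were searched. CDH5 and PLEKHA7 were not among the 24. Of the 13 genes higher in both GFI1-KO libraries, 10 had a promoter, and the 4 of these with the smallest adjusted p are shown: TJP1, PCDH12, CLDN7 and PCDH17. Capitals mark AATC, or GATT where the match lies on the other strand. Each sequence is 5′ to 3′ on the strand of its gene.
TJP1, chr15:29969050-29969299, minus strand: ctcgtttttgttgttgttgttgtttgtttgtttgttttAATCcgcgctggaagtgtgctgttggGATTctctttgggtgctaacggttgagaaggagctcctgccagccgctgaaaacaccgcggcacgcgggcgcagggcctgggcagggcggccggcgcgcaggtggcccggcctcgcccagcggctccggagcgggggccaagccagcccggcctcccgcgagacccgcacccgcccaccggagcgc
PCDH12, chr5:141958203-141958452, minus strand: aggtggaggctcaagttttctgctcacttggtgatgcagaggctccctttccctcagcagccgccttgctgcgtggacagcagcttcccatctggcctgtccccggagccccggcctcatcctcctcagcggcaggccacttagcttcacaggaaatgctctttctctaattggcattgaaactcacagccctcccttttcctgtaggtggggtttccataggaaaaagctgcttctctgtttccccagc
CLDN7, chr17:7263214-7263463, minus strand: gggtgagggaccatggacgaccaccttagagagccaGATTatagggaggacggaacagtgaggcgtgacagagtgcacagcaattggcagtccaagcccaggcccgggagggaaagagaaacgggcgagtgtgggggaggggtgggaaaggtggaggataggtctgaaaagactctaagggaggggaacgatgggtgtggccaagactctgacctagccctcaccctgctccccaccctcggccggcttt
PCDH17, chr13:57631494-57631743, plus strand: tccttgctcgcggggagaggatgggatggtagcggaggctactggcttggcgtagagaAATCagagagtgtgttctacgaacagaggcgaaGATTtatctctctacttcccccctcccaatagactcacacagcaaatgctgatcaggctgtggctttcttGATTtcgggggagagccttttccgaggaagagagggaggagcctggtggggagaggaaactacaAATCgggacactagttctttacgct

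AATC was found 2 times before TJP1, 4 times before PCDH17, 1 time before CLDN7 and 0 times before PCDH12. The RefSeq start of PCDH12 lies inside the longer GENCODE gene given above, and so does its window. The same holds for CLDN7, whose GENCODE gene runs from 7259903 to 7263983 on chromosome 17. AATC was present in 13 of the 24 matched promoters (54.2%) and in 64.8% of all 35116 promoters in the same window. The 24 are 1 entry per gene, while the 35116 are all entries, not limited to genes of the count table. The shares are therefore over unlike sets. The longer AAATCA, which contains AATC, was present in 1 of 24 (4.17%), before PCDH17, where it occurs 2 times, and in 11.6% of all promoters. These matches describe letters in the window; no binding was measured in these files.

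The polarity and scaffold genes held no call. MAGI1 and MAGI3, scaffolds that bind junction receptors, had log2 fold changes of 0.42 and 0.46 (adjusted p = 0.858 and 0.845). In the shallow library both stood at 66.2 CPM, from 10 counts each, while GFI1-KO replicate 2 was near the WT values at 28.9 CPM for MAGI1 and 28.5 CPM for MAGI3. PARD3, the PAR3 polarity gene, was at 67.9 and 77.2 CPM in the WT pair, against 66.2 and 57.9 CPM in the GFI1-KO pair (-0.29, adjusted p = 0.861). AMOTL1, an angiomotin relative and the most abundant of the group per length by its WT mean (54.3 TPM), was at 126 and 172 CPM in the WT pair, against 166 and 146 CPM in the GFI1-KO pair (0.02, adjusted p = 0.998). AMOTL2, which links VE-cadherin to actin, ran from 46.4 to 128 CPM and varied by more within each genotype than between them (0.35, adjusted p = 0.885), with -0.84 to 0.97 over the alternatives. PARD6B had 7, 7, 0 and 3 counts and was under the filter.

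**Figure D4:**
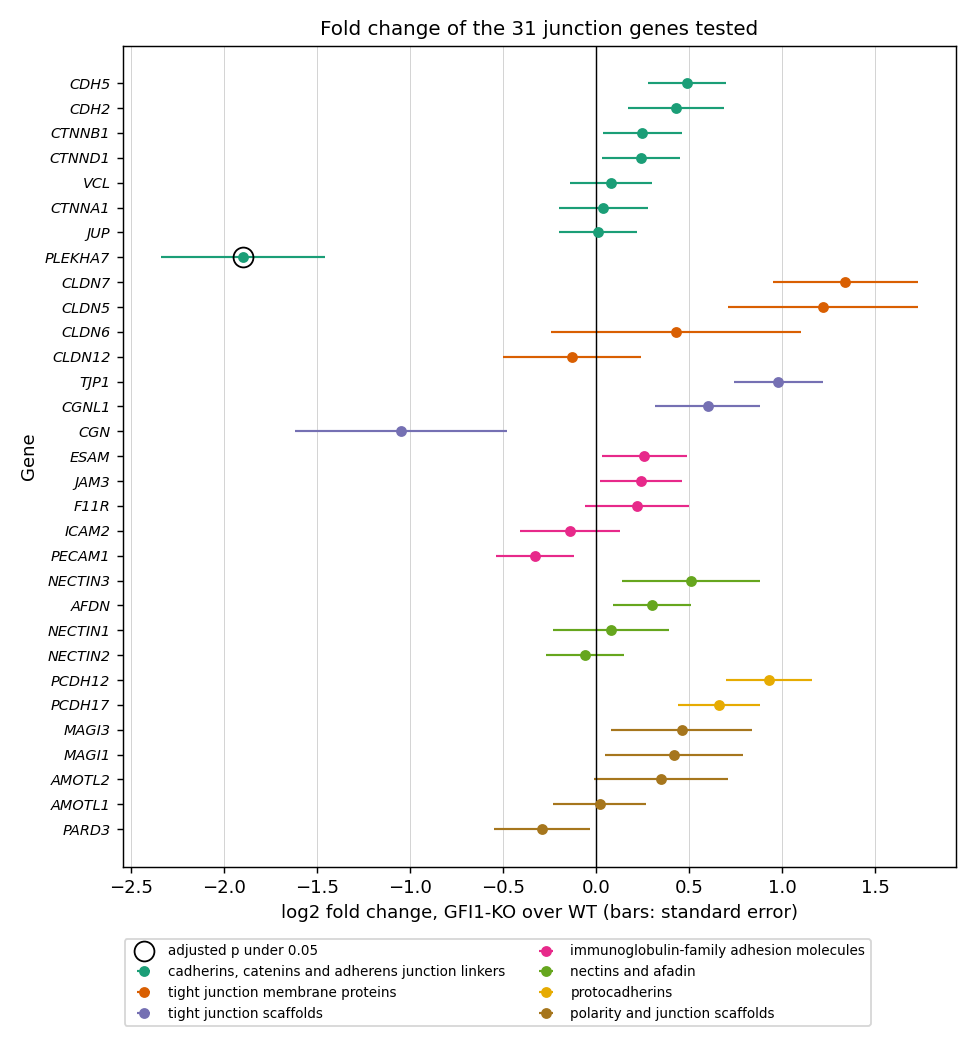
Log2 fold change of GFI1-KO over WT (x, bars are the standard error) for the 31 junction genes tested (y), coloured by role; the black ring marks adjusted p under 0.05. PLEKHA7 at -1.90 carries the ring, and TJP1, PCDH12, CLDN7 and CLDN5 lie at 0.93 to 1.34.

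Among 121 other junction genes, 84 were tested, 1 was called higher (1.19%; 0.773% of all genes) and 0 lower. The called gene was ARHGAP29, a RhoA-directed GTPase-activating protein that acts with RASIP1 downstream of RAP1 in endothelial cells. It was at 114 and 108 CPM in the WT pair, against 358 and 231 CPM in the GFI1-KO pair (log2 fold change 1.31, SE 0.25, edgeR adjusted p = 0.0171). The groups did not overlap. ARHGAP29 missed the threshold at a minimum fold of 1.5 (adjusted p = 0.174) and in the fit lacking WT replicate 2, which held 1 WT library. HEG1, the transmembrane partner of KRIT1 at endothelial junctions, was at 195 and 197 CPM in the WT pair, against 278 and 306 CPM in the GFI1-KO pair (0.59, adjusted p = 0.292). Both come from a list of RAP1 and cerebral cavernous malformation genes. Of its 11 tested genes, 5 were above 0 and 6 below, with a median of -0.03.

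In the other lists no gene passed. Desmosomal DSP and PKP2 had values of 0.50 and 0.84 (adjusted p = 0.506 and 0.534), the actin linker SORBS3 of 0.48 (0.57), and the large cadherins DCHS1 and FAT1 of 0.53 and 0.64 (0.381 and 0.407). CADM1, an immunoglobulin-family adhesion molecule, was at 4.47 and 7.55 CPM in the WT pair, against 26.5 and 21.8 CPM in the GFI1-KO pair (1.89, SE 0.47, adjusted p = 0.068). ALCAM, of the same family, was at 148 and 91.9 CPM in the WT pair, against 72.9 and 61.0 CPM in the GFI1-KO pair (-0.92, adjusted p = 0.202). The Crumbs gene CRB2 had a value of -1.37 (adjusted p = 0.264) and AMOT of 1.21 (adjusted p = 0.113), and 11 of 14 tested polarity genes were below 0. Of the other claudin and tight junction membrane genes 4 of 17 were tested, with LSR at 0.55 and CLDN10 at -0.88 (adjusted p = 0.81 and 0.686). The tight junction-associated genes ARHGEF2 and YBX3 had values of 0.46 and -0.27 (adjusted p = 0.528 and 0.845).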

How the data were processed

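The deposited values are whole-number read counts, 1 column for each of 4 libraries and 1 row per Ensembl gene. The submitters' processing notes name HTSeq 0.6.0, DESeq 1.18.1, HISAT2 2.0.4 and SAMtools 1.3.1, with hg38/GRCh38. Annotation, filters and strand setting of the counting: not given in the sources used here. Overlapping and antisense reads may therefore be split or dropped. Positions and exon lengths came from GENCODE 29 (GRCh38), which matched 19902 of 19912 identifiers. Symbols came from a separate list of gene names, with the GENCODE 29 name where that list held none. The junction genes and lists were chosen with earlier results of these data known. Per-library values were given for GFI1, GATA2, genes called, the 8 junction genes with the smallest p, CDH5, CLDN5, PECAM1, ESAM, ICAM2, CTNNB1, TJP1, CDH1 and CDH2, and the highest per length in each role group; from each other list, genes called and up to 2 with the smallest adjusted p. One gene that this rule names is not reported here.

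Counts were tested with edgeR 4.0.16 (R 4.3.3; TMM, filterByExpr with minimum count 10 and total 15, glmQLFit in its earlier dispersion form, glmQLFTest), with Benjamini-Hochberg adjustment over 11380 genes. SE was taken as the unshrunken log2 fold change over the root of the F statistic. TPM used exon-union lengths. Intervals are exact 95% Poisson or binomial limits and, like the floor of 3 counts, cover counting error only. The labels do not say that replicates were separate cultures, so p-values measure the spread between these libraries. Alternatives were DESeq2 1.42.0, limma-voom (limma 3.58.1), other scalings, filters and dispersion, a minimum fold, leaving out each library, and a replicate block. The scripts were tested on simulated data.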

Additional observations from a re-analysis of the deposited data

How the results depend on the processing

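The 109 calls over all genes became 29 with DESeq2, 58 with the newer dispersion, 58 with upper-quartile scaling, 72 with library totals only, 305 without the low-count filter, 50 at a mean of at least 5 CPM, 18 at a minimum fold of 1.5 and 62 to 373 leaving out each library in turn. The number of junction genes called lower was 0 with DESeq2, the newer dispersion, median-ratio scaling (PLEKHA7 adjusted p = 0.0505), upper-quartile scaling (0.0761), library totals only (0.0625), a mean of at least 5 CPM (0.071) and a minimum fold of 1.5 (0.234), and 0 to 1 leaving out each library. The number called higher was 1 with limma-voom, 3 without the low-count filter (TJP1, PCDH12, CLDN7) and 0 to 4 leaving out each library; the 4 came without GFI1-KO replicate 2 (TJP1, CGNL1, CLDN5, CLDN7), and PCDH12 was the 1 without GFI1-KO replicate 1. These calls were counted over the junction genes with an adjusted p, which were 29 with DESeq2, 38 without the filter and 31 or 32 otherwise. The median was taken over the same 31 junction genes throughout, and lay between 0.23 and 0.34 over the 14 alternatives. The sign was kept in all of them by 20 of the 31 genes. The other 11 were CTNNA1, JUP, VCL, CLDN12, CGN, F11R, ESAM, ICAM2, NECTIN1, AMOTL1 and AMOTL2; with the replicate block AMOTL1 turned to -0.02, and CTNNA1, JUP, CLDN12 and NECTIN1 changed sign too. Leaving out each library gave -0.17 to 0.29 for AMOTL1 (below 0 when WT replicate 1 or GFI1-KO replicate 1 was dropped), -0.39 to 0.16 for ICAM2 and -0.11 to 0.44 for ESAM.

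With the replicate block 327 genes were called, with 3 junction genes higher (TJP1, PCDH12, CLDN7) and 1 lower (PLEKHA7). Both genotypes use the replicate numbers 1 and 2, and the labels name no shared culture or day; the differences between replicates correlated at 0.116 across genes. Depth limits the shallow library: 3 counts correspond to 19.9 CPM there and to 1.26 to 1.34 CPM in the others.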
